A study of Mus musculus with 8 samples.

Results

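Testis RNA of mice labelled Ku86 knockout was compared with testis RNA of wild type mice on 4 of the 8 Affymetrix MG_U74Av2 arrays of the series. The 4 arrays were taken by their labels, 2 labelled Ku86(-/-);Terc(+/+) and 2 labelled Ku86(+/+);Terc(+/+), so both sides carried both copies of Terc, the RNA template of telomerase. Of 12422 non-control probe sets, 7282 passed the filter on low signal and were tested. These stood for 5530 genes, each counted once on its brightest probe set. The other 4 arrays were 2 labelled double knockout, Ku86(-/-);G3-Terc(-/-), and 2 labelled Terc knockout, Ku86(+/+);G3-Terc(-/-), where the mice without Terc were of the third generation without it. They lent an estimate of the spread between arrays and gave a second comparison of the Ku86 labels, whose differences share no array with the first. The estimate of spread was pooled over all 8 arrays and served both comparisons, so their p-values are not independent. Age, strain and the deleted part of the gene are not given in the sources used here. Each of the 4 compared arrays held 1 mouse, and the first double knockout array held a pool of 3.

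Ku86, the protein of the Xrcc5 gene, pairs with Ku70, the protein of Xrcc6, to form a ring that closes around broken DNA ends. The pair recruits the kinase Prkdc and the ligase complex of Lig4 and Xrcc4, which rejoin the ends by non-homologous end joining, and it also binds telomeres, the protected ends of chromosomes. In the testis, germ cells divide, pass through meiosis and are reshaped into sperm inside tubules. Sertoli cells nurse them there, contractile peritubular cells and a basement membrane wrap the tubules, and Leydig cells between the tubules make androgens.

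One linear intensity per probe set and array was deposited, and the authors had scaled each array: the trimmed mean, leaving out 2% at each end, ranged over the 8 arrays from 200.13 to 200.16. Median intensity was 60.4 and 67.3 on the arrays labelled Ku86 knockout, against 49.65 and 59.3 on the wild type arrays. The share of probe sets at or under the floor of 11.8 was 20.3% and 18.4% on the arrays labelled Ku86 knockout, against 26.0% and 20.2% on the wild type arrays. Wild type replicate 1 was scanned alone on day 3, with a repeated hybridisation, and stood apart from the others on the first principal component. Ku86 knockout replicate 1 was scanned on day 1, and the second replicates of both genotypes on day 2, so the difference between these second replicates is the within-day value. The chip lot changed with the day, so the lot and the day cannot be told apart. The correlation of log2 intensity across probe sets was 0.947 between the arrays labelled Ku86 knockout, 0.947 between the wild type arrays, and 0.934 to 0.954 across the genotypes. With 2 arrays a genotype, p-values measure only the spread between these arrays.

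The labels call the source testis, whereas the scanner records call the samples germ cells. Markers of late germ cells were among the brightest on all 4 arrays. Prm1, the protamine that packs sperm DNA, read 15410 and 17270 on the arrays labelled Ku86 knockout, against 15150 and 17230 on the wild type arrays. Somatic genes were present too, since Nr5a1, a transcription factor of steroid-producing and Sertoli cells, read 1025 and 1186 on the arrays labelled Ku86 knockout, against 1165 and 881.4 in wild type. Of the 12 epididymis markers listed, 5 had a probe set and only Gpx5 passed the filter.

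The gene targeted in the knockout, Xrcc5, went against its label. Its tested probe set read 419.9 and 458.8 on the arrays labelled Ku86 knockout, against 46.3 and 75.6 on the wild type arrays. Its signal was thus high where the label says that Ku86 is lost and low in wild type, with no overlap. The log2 difference was 2.89 ± 0.634 (SE, limma adjusted p = 0.369), and 2.60 within scan day 2. A second Xrcc5 probe set read at most 1.0 on these 4 arrays and was not tested. Neither the place of these probes in the transcript nor the deleted part of the gene is known here, and probes that lie elsewhere in the gene cannot check the deletion. The arrays are therefore named by their labels below. Xrcc6 read 95.6 and 56.4 on the arrays labelled Ku86 knockout, against 73.5 and 128.4 in wild type, and the groups overlapped. Terc has no named probe set here.

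The genes that lie beside Xrcc5 on chromosome 1 differed less than it did. Among the 10 nearest tested genes on each side, 20 in all, log2 differences ran from -0.521 to 1.17, and 0 were called. Limma gave 2 of the 20 an unadjusted p under 0.05, against 430 of 7282 (5.9%) of all probe sets. They were Tmbim1, which read 63.9 and 60.1 on the arrays labelled Ku86 knockout, against 26.3 and 28.9 in wild type, and Myl1, a myosin light chain, which read 102.4 and 76.3, against 37.2 and 51.1 in wild type. Fn1, the fibronectin gene next to Xrcc5 in this order, read 146.2 and 119.0 on the arrays labelled Ku86 knockout, against 87.9 and 107.6 in wild type. Rpl37a, its tested neighbour on the other side, read 2585.4 and 2599.4, against 2758.5 and 2179.9 in wild type, and overlapped.

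Of 7282 probe sets, limma called 3 (0.0412%) at an adjusted p under 0.05, of which 2 (0.0275%) rose and 1 (0.0137%) fell. All 3 had an adjusted p of 0.0447. Tmem129, which tags misfolded proteins of the endoplasmic reticulum with ubiquitin, rose on 1 of its probe sets, which read 662.7 and 426.4 on the arrays labelled Ku86 knockout, against 36.1 and 56.2 in wild type. Ift46, a protein of intraflagellar transport that carries cargo along growing cilia and sperm tails, rose on 1 of its probe sets to 338.4 and 250.2, against 41.5 and 43.5 in wild type. Klk1b8, a glandular kallikrein protease, fell on 1 of its probe sets to 72.2 and 58.8 on the arrays labelled Ku86 knockout, against 223.0 and 286.1 in wild type. Groups stood apart by several-fold in each case. Kallikrein genes are near-identical copies, so their signals may be shared between them.

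None of these 3 differences held on the gene's other tested probe set. The brighter probe set of Tmem129 read 353.9 and 337.6 on the arrays labelled Ku86 knockout, against 496.8 and 357.3 in wild type, a log2 difference of -0.29 ± 0.234 (SE). That of Ift46 read 677.4 and 726.9, against 747.0 and 784.2 in wild type, a difference of -0.13 ± 0.216 (SE). The other probe set of Klk1b8 read 77.1 and 73.4, against 77.9 and 69.4 in wild type. Both bright probe sets thus lay slightly lower on the arrays labelled Ku86 knockout, and that of Klk1b8 did not separate the groups. Scan day as a block brought the adjusted p of the 3 calls to 0.665 for Tmem129, 0.528 for Ift46 and 0.441 for Klk1b8. Their log2 differences under that block were 3.026, 2.599 and -2.179, against 3.561, 2.776 and -1.955 without it. Day 3 held only wild type replicate 1, so the block takes that array out of the comparison and cannot separate it from its day. Without either wild type array or either array labelled Ku86 knockout, 0 probe sets were called.

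In the arrays without Terc the same 3 probe sets read differently. Tmem129 read 133.1 and 113.8 on the arrays labelled double knockout, against 165.1 and 624.6 on the Terc knockout arrays, a log2 difference of -1.38 ± 0.503 (SE). Ift46 read 205.7 and 187.0, against 349.8 and 142.1 in the Terc knockout, and Klk1b8 read 229.7 and 249.4, against 249.5 and 363.2. Both wild type arrays thus read lowest of the 8 for Ift46, and both arrays labelled Ku86 knockout lowest for Klk1b8. The difference with Terc minus the difference without it was 4.95 ± 0.711 for Tmem129 (SE, adjusted p = 0.124) and 2.96 ± 0.540 for Ift46 (SE, adjusted p = 0.463). Over all probe sets this difference of differences gave 0 calls in limma (0.0%), with 367 (5.04%) at an unadjusted p under 0.05.

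**Figure D1:**
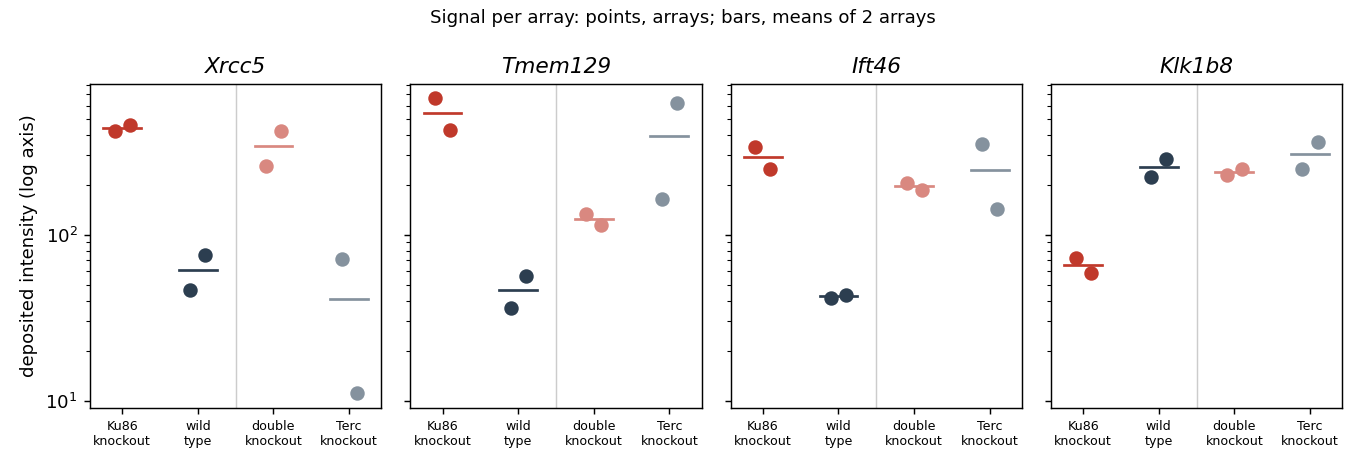
Deposited intensity of Xrcc5 and the 3 called probe sets on each of the 8 arrays, on a log axis, with points for arrays and bars for means of 2 arrays. Groups run from arrays labelled Ku86 knockout and wild type on the left to arrays labelled double knockout and Terc knockout on the right. Xrcc5 is high in both groups labelled without Ku86, whereas Tmem129 reads 662.7 and 426.4 on the arrays labelled Ku86 knockout and 133.1 and 113.8 on those labelled double knockout.

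Beyond the calls, 79 probe sets (1.08%) had an unadjusted p under 0.01, and those with the largest differences were low to middling in signal. On the higher side stood Ndrg1, a stress- and hypoxia-responsive gene, which read 139.2 and 129.1 on the arrays labelled Ku86 knockout, against 26.0 and 45.4 in wild type (log2 difference 1.96 ± 0.357 SE, adjusted p = 0.217). Its other probe set differed by 0.23 ± 0.433 (SE). Mpp3, a scaffold protein of cell junctions, read 66.0 and 59.9, against 11.5 and 12.7 in wild type, just under and just over the floor of 11.8. Dao, D-amino acid oxidase, read 72.2 and 63.7, against 17.5 and 18.4 in wild type. The groups of these genes were several-fold apart, although all 3 were uncalled. On the Terc knockout arrays Ndrg1 read 122.0 and 167.2, Mpp3 53.9 and 72.1, and Dao 44.8 and 104.1. Each of these values lay above both wild type values of its gene, although the Terc knockout label is also Ku86(+/+). The log2 difference of double knockout minus Terc knockout was 0.036 for Ndrg1, 0.21 for Mpp3 and -0.15 for Dao. Ube2f, Dapk3, Rmc1 and Nmbr, the neuromedin B receptor, differed by 1.80 to 2.20 on the log2 scale with adjusted p of 0.465 to 0.801. For C1qb, a complement component of macrophages, 1 probe set differed by 1.79 and the brighter one by -0.55.

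The largest difference on the lower side was that of Scx, the transcription factor scleraxis of tendon and Sertoli cells. It read 22.8 and 33.4 on the arrays labelled Ku86 knockout, against 420.6 and 193.6 in wild type, a log2 difference of -3.37 ± 0.627 (SE, adjusted p = 0.217). Without Terc its groups overlapped, with 200.1 and 71.4 on the arrays labelled double knockout, against 25.7 and 84.4 in the Terc knockout. Gpaa1, a subunit of the enzyme that attaches GPI anchors, differed by -2.20 ± 0.448 (SE). Rnf20, a ubiquitin ligase for histone H2B, read 80.8 and 45.0, against 315.9 and 235.3 in wild type. Their other probe sets differed by -0.22 for Gpaa1 and 0.54 for Rnf20, so a gene and its second probe set gave different readings here as well. Fcgbp, Mapkapk2, Slc25a47, Mprip, Slc12a4, Sin3b, Flot1 and Nkx2-6 completed the lower side, with log2 differences of -1.96 to -1.13 and adjusted p of 0.298 to 0.801. Second probe sets of Fcgbp, Mapkapk2, Mprip and Sin3b differed by -0.51, -0.00142, -0.06 and -0.35. Among them Flot1, a lipid raft protein, read 74.1 and 107.0, against 218.7 and 182.1 in wild type. Nkx2-6, a homeobox transcription factor, read 313.7 and 292.6, against 810.8 and 545.0 in wild type.

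Genes measured by several probe sets could be read more than once on the same arrays. Of 872 genes with at least 2 tested probe sets, 8 were higher on all of them with at least 2 at an unadjusted p under 0.05, and 1 was lower in the same way. None of their probe sets was called. Itgb1, the integrin beta 1 subunit through which cells grip the matrix, read 275.5 and 342.8 on the arrays labelled Ku86 knockout, against 116.1 and 185.3 in wild type. On its second probe set it read 74.6 and 124.8, against 19.8 and 58.9 in wild type. Groups did not overlap on either, and the mean of both log2 differences was 1.28. Hif1a, the transcription factor of the response to low oxygen, differed by 1.01 and 1.11 on its probe sets, the second of which overlapped between groups. Nfatc2, a calcium-regulated transcription factor, differed by 0.67 and 1.73. Usp34, a deubiquitinase, was brightest among the 8, with 1155 and 1089 against 560.2 and 814.3 in wild type. Myo6, Morf4l2, Ctdsp2 and Pak2 had mean differences of 1.09, 0.699, 0.627 and 0.569. Without Terc the brighter probe set of Nfatc2 differed by -0.951 and the other by 0.495, and those of Usp34 by -0.186 and -0.797. Only Itgb1, Hif1a and Morf4l2 lay above 0 there on all their probe sets, at 0.255 to 0.760. Several of these rested partly on wild type replicate 1. Without it the probe sets of Hif1a differed by 0.53 and 0.45, those of Itgb1 by 0.73 and 0.71, and those of Usp34 by 0.46 and 0.45. The overlapping probe set of Morf4l2 then differed by 0.26, and the probe set of Pak2 with the largest difference by 0.43, against 0.71 and 0.90 with both wild type arrays. Those of Nfatc2 then differed by 0.66 and 1.86. Of all 166 named probe sets with a value, 56 shrank by over 1.5 times without wild type replicate 1 and 0 turned in sign. The lower gene, Romo1, which encodes a mitochondrial membrane protein, read 304.2 and 538.0, against 843.4 and 555.0 in wild type. Its difference was -0.04 within scan day 2, against -0.76 over both pairs of arrays. It was -0.46 without wild type replicate 1. Ku86 knockout replicate 1 read lowest and wild type replicate 1 highest, and the second replicates lay close together.

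Genes listed for peritubular smooth muscle were mostly higher on the arrays labelled Ku86 knockout. Of 13 listed, 12 had a probe set and 10 passed the filter, of which 9 lay above 0 and 7 (70.0%) did not overlap on the higher side. Of all 5530 genes, 58.6% lay above 0, 23.7% did not overlap on the higher side and 14.2% on the lower side. The list's median log2 difference was 0.684, against 0.0836 over all genes. None of its members was called, and 3 had an unadjusted p under 0.05 on the higher side, as had 3.72% of all probe sets. In tissue samples of this kind, more cells of a type and more RNA per cell cannot be told apart. Nor can smooth muscle of the tubule wall be told from that of blood vessels by these genes.

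Myh11, the myosin heavy chain of smooth muscle, read 49.5 and 81.4 on the arrays labelled Ku86 knockout, against 4.6 and 9.8 in wild type, both under the floor of 11.8. It was at least 5.38-fold higher when wild type was set at that floor (adjusted p = 0.394). Mylk, the kinase that switches on smooth muscle contraction, read 383.5 and 529.1, against 166.7 and 195.8 in wild type, a log2 difference of 1.32 ± 0.243 (SE, adjusted p = 0.217). Acta2, smooth muscle actin, read 178.4 and 293.2, against 81.1 and 91.1 in wild type, a log2 difference of 1.41 ± 0.417 (SE, adjusted p = 0.801). In all 3 genes both arrays labelled Ku86 knockout lay above both wild type arrays, with replicate 2 the higher. Tpm1 and Tpm2, tropomyosins of the thin filament, and Csrp1 and Tagln, proteins bound to it, also did not overlap, with differences of 0.443 to 0.973. The exception was Actg2, the brightest member, which read 2984 and 2343 on the arrays labelled Ku86 knockout, against 3183 and 3186 in wild type. Through Actg2 the summed intensity of the list stayed close, at 4059 and 3928 against 3850 and 3881 in wild type.

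The difference was uneven between the arrays labelled Ku86 knockout. Relative to the wild type mean, the smooth muscle median was 0.356 on replicate 1 and 1.11 on replicate 2, where all genes had medians of 0.0791 and 0.0982. Wild type replicate 1 left out gave a median difference of 0.629, and scan day 2 alone gave 1.02. Quantile normalization brought it to 0.451 with all genes at 0.00608, and median centring to 0.452 with all genes at -0.149. Members stayed higher as a list under each of these settings.

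**Figure D2:**
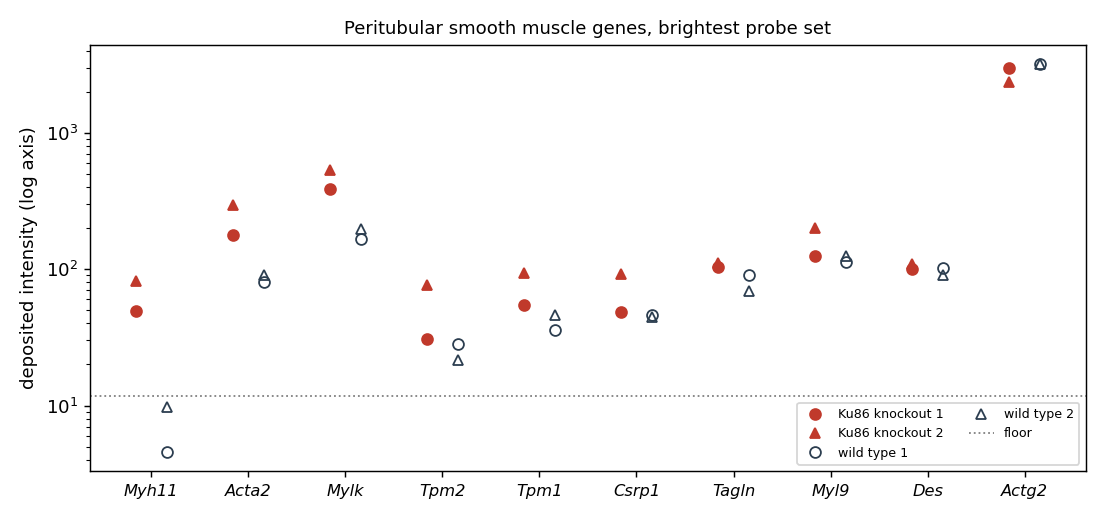
Deposited intensity of the 10 tested peritubular smooth muscle genes on a log axis, with filled symbols for arrays labelled Ku86 knockout to the left of open symbols for wild type arrays, and a dotted line at the floor of 11.8. Both filled symbols lie above both open ones for Myh11, Acta2, Mylk, Tpm1, Tpm2, Csrp1 and Tagln, and below them for Actg2.

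Since these genes stood higher together, the 250 bases upstream of their starts were read from RefSeq sequence (build GRCm38.p6) and searched for the CArG box, the site that serum response factor binds in smooth muscle promoters. It was taken as CC, then 6 bases of which at most 1 was G or C, then GG, a form that reads alike on both strands. Promoters were listed for 9 of the 12 genes with a probe set, 10 promoters in all. Those of Acta2 and Myl9 held a match, 2 of 10, as did 8.59% of 32851 promoters. A match describes these letters and does not show a bound site. Acta2 is printed as a member with matches, in capitals, and Mylk as the member with the lowest adjusted p, which has none in this window.
Acta2, chr19:34255374-34255623, minus strand: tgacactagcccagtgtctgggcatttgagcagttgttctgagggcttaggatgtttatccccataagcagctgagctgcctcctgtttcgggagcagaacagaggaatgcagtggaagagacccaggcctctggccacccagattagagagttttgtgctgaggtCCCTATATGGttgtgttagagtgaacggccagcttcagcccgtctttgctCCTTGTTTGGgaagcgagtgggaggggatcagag
Mylk, chr16:34784700-34784949, plus strand: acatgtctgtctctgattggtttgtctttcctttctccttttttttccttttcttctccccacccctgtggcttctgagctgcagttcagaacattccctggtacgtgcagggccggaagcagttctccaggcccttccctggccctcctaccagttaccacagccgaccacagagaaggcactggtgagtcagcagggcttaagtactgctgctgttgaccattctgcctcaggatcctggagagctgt

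Matrix genes followed the same pattern with smaller differences. All 24 listed had a probe set and 20 passed the filter, of which 17 lay above 0 and 11 (55.0%) did not overlap on the higher side, with a median log2 difference of 0.412 and 0 called. Eln, the elastic fibre protein, read 220.3 and 235.7 on the arrays labelled Ku86 knockout, against 154.9 and 109.0 in wild type, a log2 difference of 0.810 ± 0.281 (SE). Bgn, the proteoglycan biglycan, read 123.5 and 279.4, against 113.6 and 109.0 in wild type. Timp3, an inhibitor of matrix proteases, read 47.6 and 94.8, against 39.6 and 9.9 in wild type. The collagen genes Col1a1, Col1a2, Col4a1, Col4a2 and Col6a1 did not overlap either, and differed by 0.255 to 0.579. Hspg2, perlecan of the basement membrane, went the other way with 54.6 and 81.5, against 138.9 and 121.9 in wild type. The list's median against the wild type mean was 0.19 on Ku86 knockout replicate 1 and 0.561 on replicate 2.

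Sertoli cell genes were likewise higher on balance. Of 29 listed, 24 had a probe set and 21 passed the filter, of which 17 lay above 0 and 11 (52.4%) did not overlap on the higher side, with a median of 0.386 and 0 called. Kitl, the ligand that Sertoli cells offer to dividing germ cells, read 25.9 and 74.9 on the arrays labelled Ku86 knockout, against 20.6 and 24.6 in wild type. Cldn11, a claudin of the blood-testis barrier, read 63.9 and 100.6, against 42.9 and 54.6 in wild type. Aqp8, a water channel, read 113.8 and 138.3, against 98.4 and 71.9. Dhh, the hedgehog signal to Leydig and peritubular cells, read 325.8 and 327.4, against 201.2 and 266.6 in wild type. All 4 genes separated the groups by less than 1 on the log2 scale. Clu, the secreted protein clusterin, overlapped, with 475.2 and 976.3 on the arrays labelled Ku86 knockout, against 493.7 and 396.8 in wild type. Ku86 knockout replicate 2 lay above the wild type mean in 21 of 21 genes and replicate 1 in 15 of 21. The list summed to 3600 and 5348 on the arrays labelled Ku86 knockout, against 3346 and 3373 in wild type.

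Leydig and leukocyte lists had medians nearer to 0. Of 10 tested Leydig cell genes, 5 lay above 0, 0 did not overlap on the higher side and 2 of 10 on the lower side, where 14.2% of all genes stood, and the median was -0.00404. Against the wild type mean it was -0.253 on Ku86 knockout replicate 1 and 0.201 on replicate 2, so the arrays of that label lay on either side. Cyp17a1, which turns progestins to androgens, read 510.5 and 591.7 on the arrays labelled Ku86 knockout, against 476.6 and 576.0 in wild type. Scarb1, the receptor that takes up cholesterol esters, read 716.7 and 640.7, against 1181 and 760.6 in wild type. The 9 tested macrophage and leukocyte genes had a median of 0.116 with 0 separate on the higher side. Pan-leukocyte Ptprc read 4.6 and 11.5 on the arrays labelled Ku86 knockout, against 6.0 and 12.8 in wild type, at or near the floor throughout. Of 11 endothelial genes with a probe set only 3 passed the filter. Haemoglobin gene Hba-a1 ran from 869.9 on Ku86 knockout replicate 1 to 2354 on replicate 2, against 3010 and 2205 in wild type. Its values on the arrays labelled Ku86 knockout lay on either side of the lower wild type value.

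**Figure D3:**
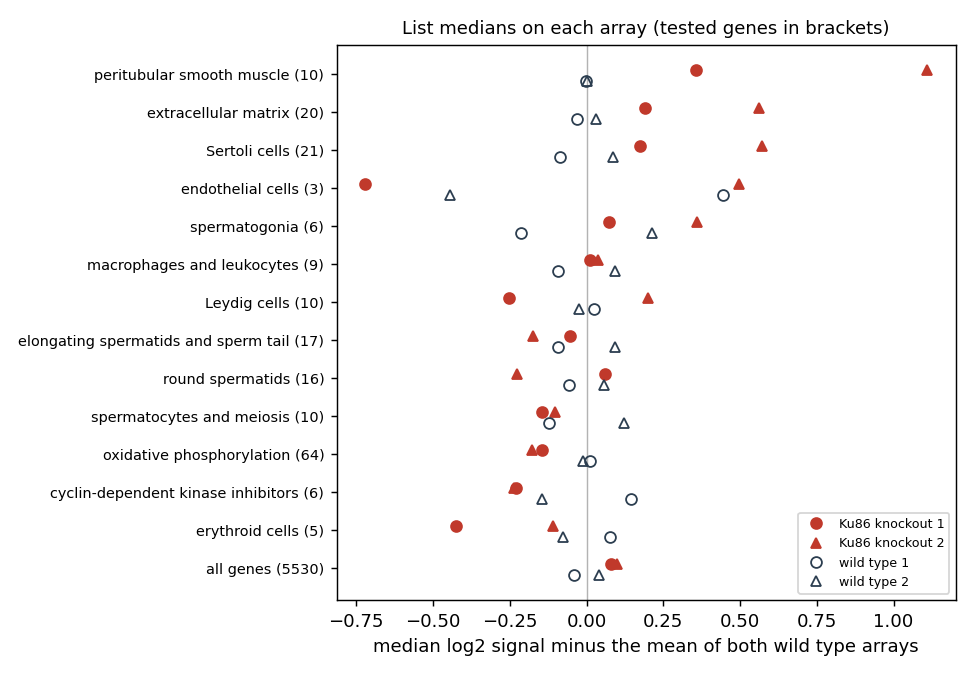
Median over the tested genes of each list of log2 signal minus the mean of both wild type arrays, with filled symbols for the arrays labelled Ku86 knockout, open symbols for the wild type arrays, circles for replicate 1 and triangles for replicate 2. Smooth muscle, matrix and Sertoli medians lie to the right on both arrays labelled Ku86 knockout and further on replicate 2 (1.11, 0.561 and 0.572), and oxidative phosphorylation lies to the left on both.

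Genes of meiotic and later germ cells were near wild type or slightly lower. Of 17 tested genes of elongating spermatids and the sperm tail, 6 lay above 0, 0 were separate on the higher side and 3 (17.6%) on the lower, with a median of -0.0775. The lower share was close to the 14.2% of all genes. The median was 0 after quantile normalization and -0.31 after median centring, with all genes at 0.00608 and -0.149. Tnp2, a transition protein that replaces histones before protamines do, read 16940 and 18510 on the arrays labelled Ku86 knockout, against 17030 and 18340 in wild type. Gapdhs, the sperm form of a glycolytic enzyme, read 10640 and 11050, against 10670 and 10830 in wild type. These values were within the spread between arrays. Hils1, a linker histone of spermatids, read 3796 and 3795, against 5170 and 4682 in wild type, and Gpx4, the selenoprotein of the sperm midpiece, read 2586 and 3403, against 4680 and 3710. Of 16 round spermatid genes, 4 lay above 0, and the median was -0.121. Their median against the wild type mean was 0.059 on Ku86 knockout replicate 1 and -0.225 on replicate 2.

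Of 10 tested meiotic genes, 3 lay above 0 and 3 (30.0%) were separate on the lower side, against 14.2% of all genes, with a median of -0.165. Syce2, a protein of the central element of the synaptonemal complex, read 1130 and 1013 on the arrays labelled Ku86 knockout, against 1651 and 1536 in wild type, a log2 difference of -0.57 ± 0.186 (SE, adjusted p = 0.801). Ldhc, the lactate dehydrogenase of spermatocytes and sperm, read 9521 and 10630, against 12310 and 12300 in wild type. Sycp1, Stag3, Hspa2 and Ccna1, which serve chromosome pairing, cohesion, chaperoning and the meiotic divisions, overlapped between groups. Spermatogonial genes were mostly too dim to test, with 6 of 15 passing the filter. Of these 6, 5 lay above 0 and 1 (16.7%) was separate on the higher side, with a median of 0.281. The separate gene was Cd9, a membrane protein of germline stem cells that other cells carry too. It read 48.6 and 72.7 on the arrays labelled Ku86 knockout, against 41.1 and 13.5 in wild type.

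Subunits of oxidative phosphorylation were lower by a small margin. Of 64 tested genes, 20 lay above 0, 25 (39.1%) did not overlap on the lower side and 3 (4.69%) on the higher side, with a median of -0.171 and 0 called. Limma gave 6 of them an unadjusted p under 0.05 on the lower side, against 159 of 7282 probe sets (2.18%). Cox6c, a subunit of cytochrome oxidase, read 2775 and 3016 on the arrays labelled Ku86 knockout, against 4446 and 4643 in wild type, a log2 difference of -0.65 ± 0.161 (SE, adjusted p = 0.501). Atp5md, a small subunit of ATP synthase, read 709.7 and 725.7, against 1297 and 1181 in wild type, a difference of -0.79 ± 0.183 (SE, adjusted p = 0.396). Both of these probe sets kept their spacing within scan day 2, at -0.62 and -0.70. Without Terc they differed by -0.0456 for Cox6c and -0.487 for Atp5md. A dim second probe set of Cox6c overlapped, with 37.8 and 64.2 on the arrays labelled Ku86 knockout, against 64.0 and 33.2 in wild type. Uqcrc1 and Cox6a1, of the cytochrome bc1 and cytochrome oxidase complexes, differed by -0.43 each overall and by -0.17 and -0.10 within scan day 2. Summed intensity of the list was 89940 and 92200 on the arrays labelled Ku86 knockout, against 101800 and 102000 in wild type, so the arrays of each genotype lay close to each other. The median was -0.144 on Ku86 knockout replicate 1 and -0.179 on replicate 2. It was -0.0825 after quantile normalization and -0.403 after median centring, with all genes at 0.00608 and -0.149.

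Repair and telomere genes had 0 calls. Of 17 listed genes of non-homologous end joining, 8 had a probe set and 7 passed the filter. Of these 3 (42.9%) were separate on the higher side, where 23.7% of all genes stood. They were the targeted gene Xrcc5, Polm, a polymerase that fills gaps at joined ends, and Wrn, a helicase. Polm read 322.7 and 336.8, against 287.2 and 305.6 in wild type, a log2 difference of 0.154 ± 0.263 (SE), less than its error. Wrn read 376.6 and 318.2 on the arrays labelled Ku86 knockout, against 224.9 and 302.1 in wild type. Its log2 difference was 0.409 ± 0.263 (SE), and 0.075 within scan day 2. The 10 tested telomere genes had a median of -0.000885, with 1 separate on each side. Tert, the catalytic subunit of telomerase, read 126.9 and 124.1, against 91.7 and 96.8 in wild type, a log2 difference of 0.414 ± 0.316 (SE), which is little more than its error. Of 15 genes of homologous recombination and break signalling, 5 (33.3%) were separate on each side, against 23.7% of all genes on the higher and 14.2% on the lower. Hus1, part of the clamp that signals damaged DNA, read 27.7 and 37.9 on the arrays labelled Ku86 knockout, against 14.3 and 13.7 in wild type, a log2 difference of 1.21 ± 0.552 (SE). All 4 readings lay under the filter signal of 38.1, so Hus1 was tested only through the arrays without Terc. There it went the other way, with 73.6 and 27.9 on the arrays labelled double knockout, against 214.4 and 291.5 in the Terc knockout. That log2 difference was -2.46 ± 0.552 (SE). Brca1, which directs recombination, differed by 0.494 ± 0.568 (SE), less than its error. H2ax, the histone that marks breaks, read 839.1 and 947.9, against 1680 and 1056 in wild type, and Trp53bp1, which binds that mark's neighbourhood and favours end joining, read 167.0 and 164.2, against 212.2 and 281.6. The difference of H2ax was -0.58, but -0.24 without wild type replicate 1 and -0.16 within scan day 2.

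Among 11 tested genes of p53 and its targets 2 were separate on the higher side (18.2%, below the 23.7% of all genes). They were Sesn1, a stress-induced inhibitor of growth signalling, with 138.6 and 116.8 against 68.8 and 90.4 in wild type, and Plk2, a kinase, with 221.1 and 166.8 against 138.1 and 122.4. Cdkn1a, the cell cycle inhibitor p21, overlapped, with 158.6 and 130.9 on the arrays labelled Ku86 knockout, against 194.4 and 149.6 in wild type. Its relative Cdkn1c, p57, was the inhibitor with the largest difference, at 959.7 and 880.1, against 2206 and 1491 in wild type (log2 difference -0.98 ± 0.242 SE, adjusted p = 0.501). Of 16 tested Bcl2 family, caspase and apoptosome genes, 6 (37.5%) were separate on the higher side and 3 (18.8%) on the lower, with 0 at an unadjusted p under 0.05. Of all genes, 23.7% were separate on the higher side and 14.2% on the lower. Casp9, the initiator caspase of the mitochondrial route, read 148.9 and 178.4 on its brightest probe set, against 108.8 and 127.3 in wild type. Its other probe sets read 121.9 and 97.8, against 98.5 and 103.7 in wild type, which overlapped, and 30.2 and 47.7, against 48.7 and 48.3, which lay the other way.

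In the cell cycle and replication lists the genes that stood out were few. Tk1, thymidine kinase of S phase, read 143.6 and 171.9 on the arrays labelled Ku86 knockout, against 33.3 and 65.8 in wild type, a log2 difference of 1.75 ± 0.388 (SE, adjusted p = 0.371). On its other probe set it read 150.4 and 156.9, against 69.8 and 72.4 in wild type, so both probe sets separated the groups in the same direction. Of 26 tested replication genes 7 (26.9%) were separate on the higher side, close to the 23.7% of all genes. Cyclins and their kinases gave 5 of 21 (23.8%), among them Cdk7, the kinase that activates other cyclin-dependent kinases, with 87.9 and 133.6 against 61.6 and 47.9 in wild type. Chromatin genes gave 4 of 16, with Hmgn1, a nucleosome binding protein, at 902.8 and 877.6 against 627.4 and 658.7 in wild type. On the lower side they gave 2 of 16 (12.5%), Rnf20 and H2az1, a histone variant, which read 1988 and 1765 against 3524 and 2309 in wild type.

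Signalling and metabolic lists held single genes that separated the groups. Elovl5, which lengthens polyunsaturated fatty acids, read 228.1 and 272.5 on the arrays labelled Ku86 knockout, against 110.2 and 158.2 in wild type, a log2 difference of 0.917 ± 0.258 (SE, adjusted p = 0.718). Igf2, the fetal insulin-like growth factor, read 298.3 and 268.1, against 151.1 and 209.0 in wild type. Gss, glutathione synthetase, read 212.5 and 140.1, against 67.1 and 108.7, whereas Gclm, a subunit of the enzyme one step earlier, read 157.4 and 121.9, against 226.8 and 192.3 in wild type. Hsp90b1, a chaperone of the endoplasmic reticulum, read 1719 and 1741, against 885.6 and 1483, and Hspa5, its partner, 1605 and 1674 against 1157 and 1354. H2-T18, a histocompatibility gene with close copies that may share its signal, read 452.1 and 579.3, against 160.5 and 273.6 in wild type. Dusp1, a stress-induced phosphatase, read 139.4 and 170.9, against 318.8 and 204.3. None of these genes was called. Without wild type replicate 1 the difference was 0.22 for Hsp90b1, 0.67 for Gss, 0.44 for Igf2 and -0.40 for Dusp1, against 0.59, 1.01, 0.67 and -0.73 with both wild type arrays. Kinesins included Kif5a at 28.5 and 27.0, against 62.8 and 69.6 in wild type, and Kif11, the motor that pushes spindle poles apart, at 75.2 and 81.7, against 32.1 and 39.2. The proteasome had 5 of 37 (13.5%) separate on the higher side and 8 (21.6%) on the lower, and cytosolic ribosomal proteins 2 of 27 (7.41%) and 5 (18.5%). All genes had 23.7% and 14.2% in that order.

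The second comparison of the Ku86 labels, double knockout minus Terc knockout, uses 4 other arrays. Limma called 0 of 7282 probe sets in it (0.0%), with 310 (4.26%) at an unadjusted p under 0.05. Across probe sets its log2 differences had a Pearson correlation of -0.014 and a Spearman correlation of -0.0279 with those of Ku86 knockout minus wild type, a description over probe sets that share arrays and are not independent replicates. Of 79 probe sets at an unadjusted p under 0.01 with Terc, 40 (50.6%) had the same sign without it, against 48.5% of all probe sets. Within scan day 2 alone the Pearson correlation was 0.109. The first pair of replicates and the second pair in the comparison with wild type correlated by 0.0934.

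**Figure D4:**
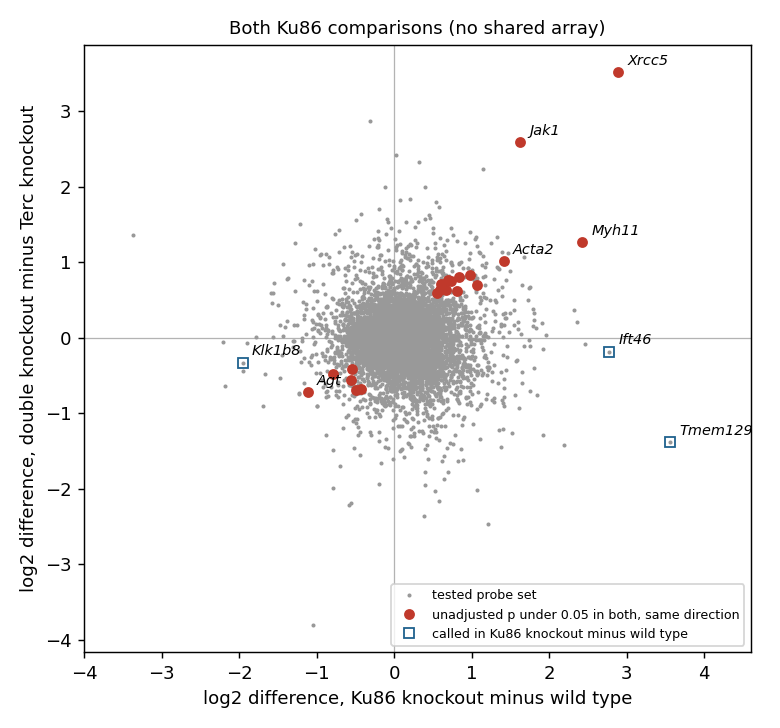
Log2 difference of each of 7282 tested probe sets in Ku86 knockout minus wild type (horizontal) and in double knockout minus Terc knockout (vertical), by the labels. The cloud has no slope (Pearson -0.014), the 3 called probe sets (squares) lie near or below 0 on the vertical axis, and Xrcc5 lies far to the upper right.

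Some genes were nonetheless past an unadjusted p of 0.05 with the same sign in both. They were 14 of the 271 higher with Terc (5.17%), where 2.24% of all probe sets were higher without it at that level. The same 14 were 8.59% of the 163 higher without Terc, where 3.72% of all probe sets were higher with it. On the lower side they were 6 of the 159 lower with Terc (3.77%), where 2.02% of all were lower without it. The same 6 were 4.08% of the 147 lower without Terc, where 2.18% of all were lower with it. Another 8 and 3 were past it with opposite signs. Each of the 20 was taken because it passed both, after its values had been seen. Both p-values of a probe set use the same pooled spread, so a small spread favours passing in both. Xrcc5 read 259.0 and 423.3 on the arrays labelled double knockout, against 71.2 and 11.1 in the Terc knockout, a log2 difference of 3.51 ± 0.634 (SE, adjusted p = 0.501). It therefore went against its label in both comparisons.

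Jak1, a kinase of cytokine receptors, read 65.0 and 92.3 on the arrays labelled Ku86 knockout, against 20.7 and 30.3 in wild type. Without Terc it read 118.5 and 96.6 on the arrays labelled double knockout, against 26.6 and 11.9 in the Terc knockout. Its log2 differences were 1.63 ± 0.559 and 2.59 ± 0.559 (SE), and all 4 arrays labelled without Ku86 lay above the other 4. Myh11 and Acta2 of the smooth muscle list differed by 1.27 and 1.02 without Terc, where Acta2 overlapped with 296.0 and 500.2 on the arrays labelled double knockout, against 297.2 and 121.9. Itgb1 read 609.2 and 550.4, against 406.1 and 312.0 in the Terc knockout. Its second probe set overlapped there, with 120.2 and 142.3 on the arrays labelled double knockout, against 123.7 and 88.1. Gas6, a ligand of the TAM receptors with which Sertoli cells engulf dying germ cells, read 161.3 and 193.8 on the arrays labelled Ku86 knockout, against 102.2 and 121.1 in wild type. Without Terc it read 276.7 and 259.6, against 179.7 and 168.1. Other named ones were the deacetylase Hdac6, the chromatin regulators Rbbp7 and Morf4l2, the small GTPase Ralb and the adhesion receptor Adgrl1. The splicing kinase Clk1 and Gtf2h1 of the repair and transcription factor TFIIH completed the higher side. All of these others differed by 0.547 to 0.975 with Terc and by 0.592 to 0.826 without it. Of the lower genes, Agt, angiotensinogen, read 170.0 and 260.5, against 417.5 and 497.2 in wild type. Without Terc it read 394.0 and 371.3 on the arrays labelled double knockout, against 569.7 and 700.9. Atp5md, Ipo4, Tubb6, Gpx4 and Lypla1 differed by -0.79 to -0.43 with Terc and by -0.69 to -0.41 without it. Other probe sets of Ipo4 and Lypla1 differed by -0.31 to -0.03 and by -0.89 to 1.00 with Terc. The difference of Gpx4 was -0.12 within scan day 2 in the comparison with wild type, and that of Ipo4 -0.21, against -0.49 and -0.56 overall.

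**Figure D5:**
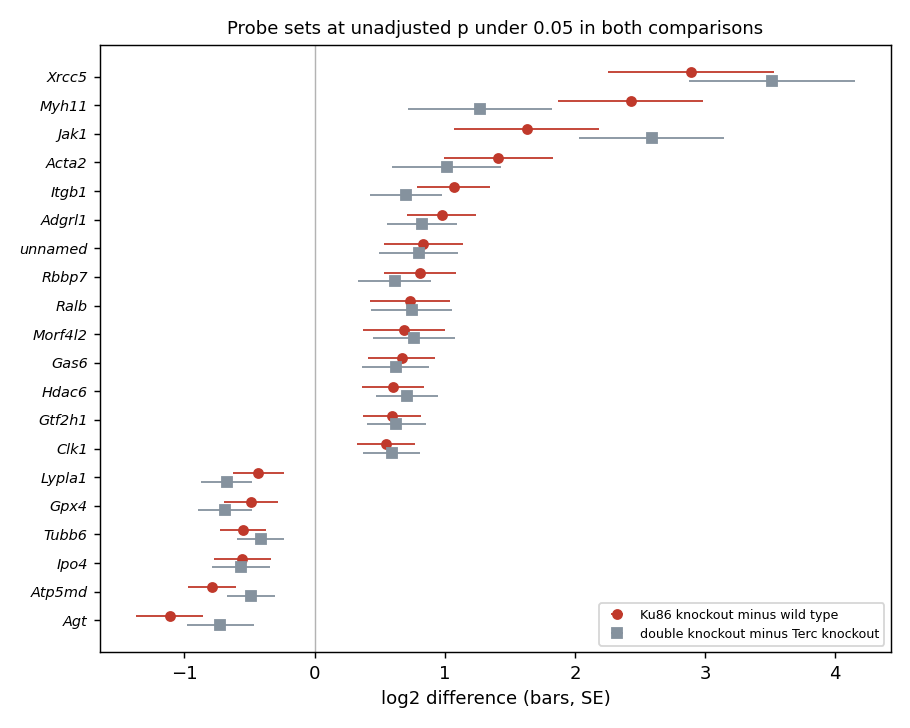
Log2 difference with its SE for the 20 probe sets at an unadjusted p under 0.05 in both comparisons, with circles for Ku86 knockout minus wild type and squares for double knockout minus Terc knockout, by the labels. Xrcc5 stands highest in both, 14 probe sets lie to the right of 0 and 6 to the left, and 1 on the right has no single gene name.

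At the level of lists, smooth muscle genes had a median of 0.76 in double knockout minus Terc knockout, against 0.684 in Ku86 knockout minus wild type, and all genes had medians of -0.00827 and 0.0836. Sertoli genes had 0.272 and 0.386 in that order, and matrix genes 0.209 and 0.412. Oxidative phosphorylation had -0.0815 and -0.171, and meiotic genes -0.109 and -0.165. Others had opposite signs, such as end joining with -0.151 and 0.28, DNA replication with -0.0701 and 0.127, round spermatids with 0.027 and -0.121, and erythroid genes with 0.177 and -0.427. Of 38 lists, 19 had the same sign in both comparisons and 19 had opposite signs. No test was made over a list.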

How the data were processed

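The deposited values were 1 intensity per probe set and array, on a linear scale that the authors had scaled array by array. For their software, the sources used here state nothing. The scanner's text records, per the file headers, gave the scan day, the chip lot, 15 micrograms of cRNA per array and the number of mice. Of 12488 probe sets, 66 controls were left out. Values under the pooled 20th percentile, an intensity of 11.8, were set to it, log2 was taken, and probe sets with a mean under the pooled 40th percentile, 38.1, were left out. Of all probe sets, 10855 had 1 gene symbol, 396 several and 1237 none in the platform table, and genes matched the RefSeq table of GRCm38.p6 for names and gene order.

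Limma 3.58.1 in R 4.3.3 (lmFit, eBayes with a trend) was fitted to all 8 arrays with 1 mean per genotype. Calls were two-sided, with Benjamini-Hochberg adjustment over all 7282 tested probe sets and a threshold of 0.05. Python 3.11.15 with numpy 2.4.6, pandas 2.3.3 and matplotlib 3.10.9 made the summaries. These steps were tested on simulated data with known changes. With 2 arrays per genotype, the number of arrays limits the precision.

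Named were Xrcc5, Xrcc6 and Terc, every called probe set, up to 12 probe sets in each direction with the largest differences at unadjusted p under 0.01 and no overlap, and genes whose several probe sets moved together. Up to 4 members per list were also named, as were genes with the largest differences in both Ku86 comparisons, with marker genes as values. Members named as overlapping or as exceptions were chosen after their values were seen. The 38 gene lists and the members were chosen with earlier results of these data known. Lists were described on each gene's brightest probe set by counts and medians. Alternatives covered the scaling, floor, filter, variance model, arrays fitted, blocks, thresholds and each array left out.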

Additional observations from a re-analysis of the deposited data

How the results depend on the processing

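The count of 3 called probe sets in Ku86 knockout minus wild type became 0 after quantile normalization, with an offset in place of the floor, with no variance trend, with the replicate block, with scan day as a block and at a threshold of 0.01, and 1 (Klk1b8) after median centring. It was 0 to 3 with 1 array left out, and 0 without any 1 of the 4 compared arrays. With no filter it was 3, but these were Aff1, Eif4e and Sh3rf1, named only because they replaced the other 3. With only the 4 compared arrays it was 4, with Xrcc5 and Scx in place of Klk1b8. Raising the floor to the 40th percentile, or omitting either Terc knockout array, also brought Xrcc5 past the threshold. Omitting any 1 of the 4 arrays outside the comparison left Tmem129 and Ift46 called and Klk1b8 uncalled. The causes were not tested. The numbers of the replicates did not clearly pair the arrays, since the correlation of deviations was 0.046 between Ku86 knockout and wild type replicates 1 and 0.254 between Ku86 knockout and double knockout replicates 1. Under the replicate block 565 probe sets had an unadjusted p under 0.05, against 430 without it. In double knockout minus Terc knockout the count was 10 with no filter, against 0, and 0 to 2 with 1 array left out. In the difference of the 2 Ku86 differences it was 8 with no filter and 0 to 1 with 1 array left out. Of 69 probe sets followed through 22 alternatives and within scan day 2, 64 kept their direction. One probe set of Pak2 moved to -0.00662 after median centring. The scan day block gave 0.249 for Rps13, 0.801 for Wnk1 and -0.0848 for Cars. Scan day 2 alone gave 0.564 for Rps13, 0.809 for Wnk1 and 0.0942 for Hba-a1. Leaving out 1 array moved Wnk1 between -2.57 (without Ku86 knockout replicate 2) and 0.99 (without Ku86 knockout replicate 1). Their main values were 0.226 for Pak2, -0.88 for Rps13, -0.79 for Wnk1, -0.85 for Hba-a1 and 1.33 for Cars. With 2 arrays per genotype and many probe sets near the floor, differences of dim genes rest on few signals.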
